A study of Mus musculus with 6 samples.

Results

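The ubiquitin-specific proteases were taken as all genes in the raw count table whose symbol is Usp followed by a digit, leaving out Usp18. The rule found 51 genes among the 37576 in the table. It works on names alone and therefore also takes in Usp6nl, which is named after USP6 but encodes a GTPase-activating protein for Rab5 and no protease, and Usp39, a splicing factor whose protease fold lacks working catalytic residues. Livers came from C57BL/6 mouse embryos at embryonic day 12.5, 3 homozygous for the E861A mutation of ADAR1 (numbers 6, 16 and 19, all male) and 3 wild type, WT (number 2, male, and numbers 15 and 17, female). E861A leaves the ADAR1 protein in place but without the ability to convert adenosine to inosine in double-stranded RNA. RNA was taken from dissociated cells of the whole organ, so each value averages over all cell types present, and fewer cells of a type and less RNA per cell cannot be told apart. The number and sex given for each library are read here as a separate embryo, but nothing in the labels states how embryos were drawn from litters. The p-values for expression therefore rest on the spread between these 6 libraries only. Those computed here for editing sites rest on reads summed per genotype and do not use that spread.

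Ubiquitin-specific proteases are cysteine proteases and form the largest family of deubiquitinases, the enzymes that cut ubiquitin from proteins or from ubiquitin chains and so spare a substrate from the proteasome or change its location and activity. Members differ mostly in their substrates and partners: some act on histones and repair proteins in the nucleus, others on receptors, organelle proteins or signalling components. In the fetal liver, where red cell precursors divide quickly and then discard most of their organelles, ubiquitin removal is part of p53 control, replication, repair and protein clearance. Usp18, which was left out, removes the ubiquitin-like protein ISG15 and is itself an interferon-stimulated gene. It averaged 618 ± 207 CPM (counts per 1000000 reads) in E861A and 4.49 ± 1.49 CPM in WT (SD, n = 3 each).

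The libraries held 35280460 to 43733715 reads in genes. Of the 3883 editing sites covered by 10 or more reads per genotype, 647 were edited less in E861A and 6 more (Fisher's exact test on summed reads, adjusted over all sites). Beside the family, the summed level of 12 erythroid markers was 14896 to 15693 CPM in E861A and 18579 to 46155 CPM in WT, with 6 of the 12 lower in E861A (edgeR adjusted p under 0.05) and none at 0. The summed level of 14 cell cycle genes was 4601 to 4840 CPM in E861A and 6899 to 10622 CPM in WT, with 6 lower. The 12 hepatoblast markers summed to 20612 to 30104 CPM in E861A and 16683 to 20987 CPM in WT, with 4 higher, and the 12 dissociation and immediate-early genes to 667 to 1411 CPM in E861A and 158 to 387 CPM in WT, with 7 higher. Of 10 macrophage markers 2 rose and 1 fell, and of 9 endothelial markers 4 rose and 1 fell. Of 9 mesenchymal and 7 megakaryocyte markers edgeR called 0, with 0 at an unadjusted p under 0.05, and DESeq2 called 0. Both lists depended on the setting. Without WT 2, 4 of the 9 mesenchymal markers rose. With sex as a covariate all 7 megakaryocyte log2 fold changes were above 0, against 6 without it, and their median moved further above 0. All 9 mesenchymal log2 fold changes were then below 0, against 3 without the covariate. Calls with sex as a covariate were 0 of 12 for the erythroid markers (median log2 fold change -0.57, against -1.11 without it), 1 of 14 for the cell cycle genes, 0 of 12 for the hepatoblast markers and 1 of 9 for the endothelial markers, while 7 of 12 dissociation genes still rose. The part of cell makeup, cell division and dissociation in the results below was not tested.

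More members fell in E861A than rose. Of the 51 members, 46 had enough reads to be tested, and 9 of these fell while 0 rose (edgeR's quasi-likelihood test, Benjamini-Hochberg adjusted p under 0.05 over all 16511 tested genes). Over all tested genes, 4.26% fell and 7.77% rose, 12.0% in either direction. The 9 that fell were Usp7, Usp31, Usp34, Usp6nl, Usp9x, Usp32, Usp46, Usp45 and Usp24. At an unadjusted p under 0.05, 15 members were below 0 and 2 above, 17 of 46 in all, where 27.7% of all genes had such a p. DESeq2 called 12 members, all lower, where it called 8.25% of all genes lower and 16.8% in either direction. The log2 fold change was below 0 for 35 of the 46 members, against 46.7% of all tested genes, and its median was -0.23 for the members and 0.04 for all tested genes. Members' levels summed to 3276.5, 3286.4 and 3324.2 CPM in E861A 6, 16 and 19, against 3871.3, 4970.6 and 4434.3 CPM in WT 2, 15 and 17. The 3 E861A sums lie close together and below every WT sum, and among the WT livers the male one was lowest.

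These calls rest on few libraries, as do those over all genes. With sex as a covariate edgeR called 0 members, where 0.236% of all genes fell, and 8 of 46 members had an unadjusted p under 0.05, near the 18.9% of all genes that did. With the male libraries alone it called 0 members, where 0.0447% of all genes fell, and 7 of 48 had such a p, near the 12.7% of all genes. Without WT 17, 0 members were called, where 0.553% of all genes fell. Without WT 15 only Usp7 was called (1.15% of all genes fell), and without E861A 16 only Usp7 and Usp31 (0.879%). Without E861A 6 or E861A 19, 6 each were called (2.95% and 3.08% of all genes fell). Without WT 2, 11 fell (8.96% of all genes), and Usp11 and Usp27x rose. RLE scaling called 9 members lower (5.34% of all genes fell), no read filter beyond 1 read 10 (2.84%) and a filter of 1 CPM in 3 libraries 11 (8.33%). All 9 stayed below 0 in every one of these settings. They were picked by their calls in these same libraries, so a kept sign is not separate support. With 1 library left out the log2 fold change lay, for example, between -1.21 and -0.83 for Usp34 (full value -0.98). For Usp32 it lay between -1.26 and -0.80 (full value -1.07). The authors' deposited table holds 44 members and calls 9 lower and 0 higher in E861A, the same 9 genes. It comes from the same 6 libraries and is not an independent check of these calls.

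**Figure D1:**
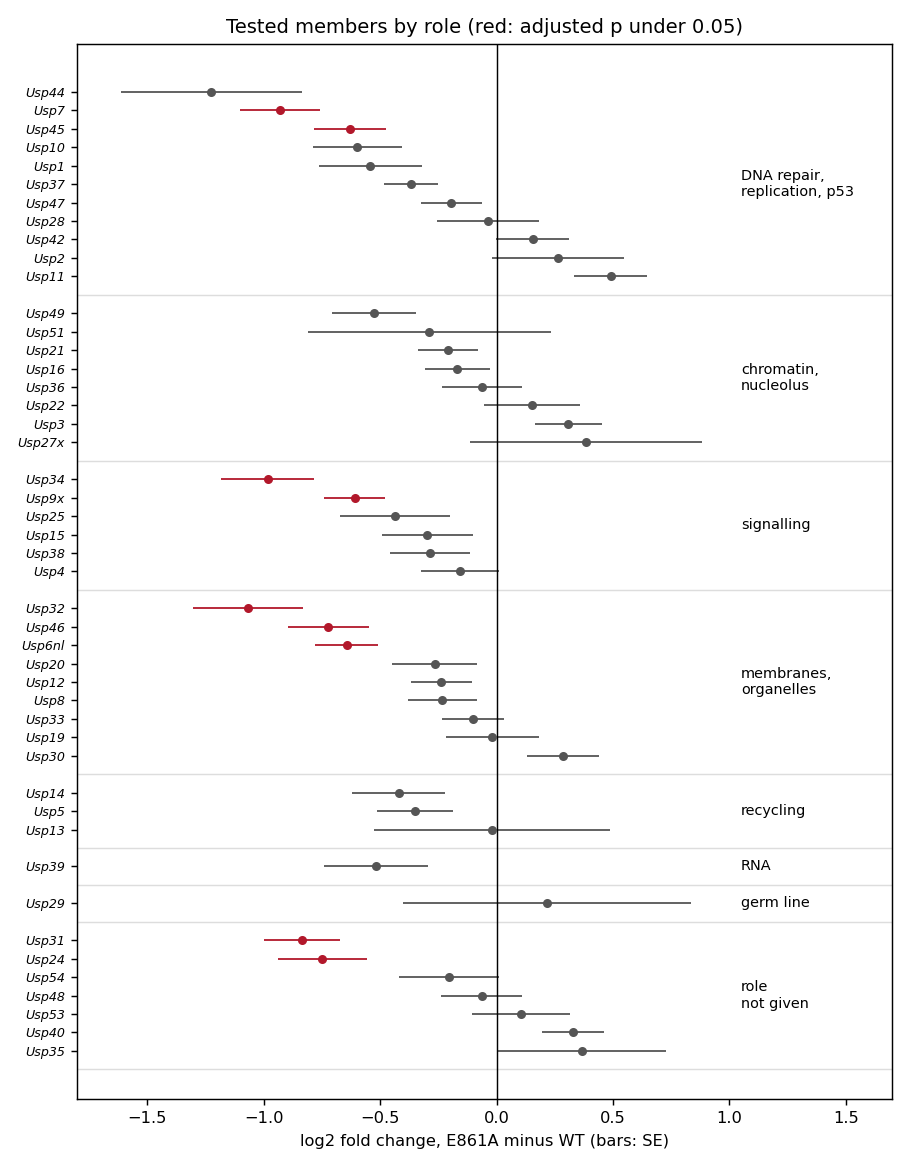
Log2 fold change, E861A minus WT, of the 46 tested members, grouped down the page by role. Points are fitted values, horizontal bars are 1 SE either side, and red points have an adjusted p under 0.05; all 9 red points lie left of 0, and 35 of the 46 points do.

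The first role group holds 11 members that act in DNA repair, replication and p53 control. All 11 were tested, 2 fell, and the median log2 fold change was -0.37. Usp7 (chromosome 16, 8688815 to 8792401, minus strand; all gene positions are in NCBIM37) removes ubiquitin from Mdm2 and p53. Its level was 230.2, 259.6 and 256 CPM in E861A 6, 16 and 19, against 406, 565 and 451 CPM in WT 2, 15 and 17. Every E861A liver lay well below every WT liver. The log2 fold change was -0.93 (SE 0.17, edgeR adjusted p = 0.0128), and the fold change was between -1.04 and -0.70 on the log2 scale in all settings tried. Per kilobase of exon Usp7 had 28.7 CPM in E861A, rank 7 in the family there, and 54.8 CPM in WT, rank 4.

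Usp45 (chromosome 4, 21694303 to 21765019, plus strand) acts on Ercc1, a subunit of an excision repair nuclease. It had 75.7, 68.7 and 68.0 CPM in E861A 6, 16 and 19, against 90.9, 124 and 114 CPM in WT 2, 15 and 17. Here too the groups did not overlap, and E861A 6 and WT 2 came closest to each other. Usp45 fell by 0.63 on the log2 scale (SE 0.15, edgeR adjusted p = 0.0356). That value was -0.36 with sex as a covariate, against -0.35 in male livers only.

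Usp44, an inhibitor of mitotic exit that acts on Cdc20, had the fold change furthest below 0 in the family at a low level. It had 1.99, 3.33 and 3.70 CPM in E861A 6, 16 and 19, against 4.001, 10.01 and 7.07 CPM in WT 2, 15 and 17. The groups were separate but WT spread widely, and the log2 fold change of -1.22 (SE 0.39) missed the threshold (edgeR adjusted p = 0.0839). DESeq2 called it, as did the test without WT 2, but with sex as a covariate its log2 fold change was -0.41 (adjusted p = 0.616).

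Usp10, which removes ubiquitin from p53 outside the nucleus and binds G3bp1, had 82.3, 112 and 110.1 CPM in E861A, against 126, 180.0 and 154 CPM in WT, in the same library order. The E861A values lay below all WT values, with a log2 fold change of -0.60 (SE 0.19, edgeR adjusted p = 0.0825). DESeq2 called it, and with sex as a covariate it stood at -0.31. Usp1, the partner of Wdr48 that acts on Fancd2 and Pcna, had 211, 132 and 128 CPM in E861A 6, 16 and 19, against 205, 251 and 231 CPM in WT 2, 15 and 17. E861A 6 lay inside the WT range while the other E861A livers lay far below it. The log2 fold change was -0.54 (SE 0.22, edgeR adjusted p = 0.156), and without E861A 6 it was -0.82 with an adjusted p of 0.0289.

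Usp11, an X-linked member tied to Brca2-dependent repair, ran the other way. It had 65.3, 71.4 and 69.3 CPM in E861A 6, 16 and 19, against 56.4, 39.9 and 50.3 CPM in WT 2, 15 and 17. All E861A livers were above all WT livers, and the log2 fold change of 0.49 (SE 0.16) did not pass (edgeR adjusted p = 0.0849). It was 0.28 with sex as a covariate (adjusted p = 0.447).

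The other members of this group did not pass either. Usp37, which acts on cyclin A, had 50.3, 48.8 and 49.1 CPM in E861A 6, 16 and 19, against 62.7, 64.6 and 63.9 CPM in WT 2, 15 and 17, with little spread within either genotype. Its log2 fold change was -0.37 (SE 0.12, edgeR adjusted p = 0.0806), and DESeq2 called it. Usp47, a protease of the base excision repair polymerase, was lower in every E861A liver with a log2 fold change of -0.19 (SE 0.13). Usp28, a partner of 53BP1, stood at -0.04, Usp42, which acts on p53, at 0.16 and Usp2, which acts on cyclin D1 and Mdm2, at 0.26, all with overlapping groups.

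In the signalling group all 6 members were tested and all 6 log2 fold changes were below 0, with 2 that fell and a median of -0.37. Usp34 (chromosome 11, 23206916 to 23389744, plus strand), a very large protease that stabilises axin in the Wnt pathway, had 58.2, 73.1 and 96.4 CPM in E861A 6, 16 and 19, against 140.1, 164 and 146 CPM in WT 2, 15 and 17. E861A spread more than WT but stayed below it. The log2 fold change was -0.98 (SE 0.20, edgeR adjusted p = 0.0183). The opposite-strand gene Ahsa2 shares 7.5% of the exon bases of Usp34, and whether the libraries kept strand is not given in the sources used here.

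Usp9x (chromosome X, 12648624 to 12759008, plus strand) removes ubiquitin from Mcl1 and Smad4, among others. It had 119, 115 and 132 CPM in E861A 6, 16 and 19, against 191, 183 and 185 CPM in WT 2, 15 and 17. The male WT 2 and the female WT 15 and 17 were alike, and the WT SD was 4.03 CPM, the narrowest relative spread of the 9 genes in WT. The log2 fold change was -0.61 (SE 0.13, edgeR adjusted p = 0.0229). It was -0.64 with sex as a covariate, where the adjusted p was 0.0900, and -0.63 in the male libraries alone, where it was 0.264.

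The remaining signalling members were abundant and did not pass. Usp25, a negative regulator in inflammatory receptor signalling, had 257, 181 and 175 CPM in E861A 6, 16 and 19, against 203, 334 and 294 CPM in WT 2, 15 and 17. Usp15, which acts on TGF-beta receptors and Smads, had 193, 145 and 137 CPM in E861A, against 163, 228 and 192 CPM in WT. Usp4, its close paralogue, had 163, 172 and 164 CPM in E861A, against 150.4, 218 and 189 CPM in WT. The groups overlapped for all 3, with log2 fold changes of -0.44, -0.30 and -0.16 and edgeR adjusted p of 0.279, 0.379 and 0.612. Usp38, with 24.6% of its exon bases shared with the opposite-strand gene Gm9725, stood at -0.29 (SE 0.17). With sex as a covariate Usp15 stood at -0.040 on the log2 scale, and Usp25 at 0.0097 and Usp4 at 0.15, both above 0.

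The group of membrane traffic, organelle and Wdr48-bound members had 9 tested genes, 3 of which fell, and a median of -0.24. Usp32 (chromosome 11, 84797944 to 84953663, minus strand), a membrane-anchored protease of the Golgi and endosomes that acts on Rab7, had the lowest fold change among the 9 that fell. Its level was 106, 134 and 133 CPM in E861A 6, 16 and 19, against 191, 348 and 242 CPM in WT 2, 15 and 17. WT 15 stood far above the other WT livers, yet WT 2 was still above every E861A liver. The log2 fold change was -1.07 (SE 0.24, edgeR adjusted p = 0.0253), and -0.62 with sex as a covariate.

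Usp46 (chromosome 5, 74394487 to 74464455, minus strand) needs Wdr48 for activity and is known for its action on glutamate receptors. It had 47.7, 35.6 and 41.9 CPM in E861A 6, 16 and 19, against 58.4, 81.2 and 67.1 CPM in WT 2, 15 and 17. The groups did not overlap, and the log2 fold change was -0.72 (SE 0.17, edgeR adjusted p = 0.0343), and -0.48 in the male libraries alone. Its paralogue Usp12, which uses the same partner, was also lower in every E861A library, but by only -0.24 on the log2 scale (SE 0.13, adjusted p = 0.296).

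Usp6nl (chromosome 2, 6243713 to 6367436, plus strand) is the Rab5 regulator and no protease. It had 33.2, 36.4 and 38.4 CPM in E861A 6, 16 and 19, against 51.6, 55.9 and 61.4 CPM in WT 2, 15 and 17. The spread within each genotype was narrow. It fell by 0.64 on the log2 scale (SE 0.13, edgeR adjusted p = 0.020). Without this gene, 8 proteases fell.

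The 5 other members of this group were not called and stood between -0.27 and 0.28 on the log2 scale. Usp8, which sorts receptors at the endosome, stood at -0.23. Usp20 and its paralogue Usp33, which act on adrenergic receptors, stood at -0.27 and -0.10, and Usp19, anchored in the endoplasmic reticulum, at -0.02. Usp30, which opposes the clearance of mitochondria, stood at 0.28 (SE 0.15) with 17.1, 20.8 and 21.7 CPM in E861A, against 15.96, 15.6 and 17.4 CPM in WT.

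Among members with changed catalytic residues or with no role given here, 7 of 8 were tested and 2 fell, with a median of -0.06. Usp24 (chromosome 4, 105988818 to 106113927, plus strand) had 130.3, 146 and 144 CPM in E861A 6, 16 and 19, against 177, 278 and 251 CPM in WT 2, 15 and 17. Its log2 fold change was -0.75 (SE 0.19, edgeR adjusted p = 0.0416), the largest adjusted p of the 9. It was -0.34 with sex as a covariate, against -0.33 in male livers only. Usp31 (chromosome 7, 128785535 to 128850767, minus strand) had 26.3, 28.1 and 32.2 CPM in E861A, against 43.4, 60.2 and 50.7 CPM in WT. Its log2 fold change was -0.83 (SE 0.16, edgeR adjusted p = 0.0162). In both genes every E861A liver was below every WT liver. Of the others in this group, Usp40 stood at 0.33 (SE 0.13, edgeR adjusted p = 0.157) with every E861A liver above every WT liver, and Usp35, Usp48, Usp53 and Usp54 stood between -0.21 and 0.37 with overlapping groups.

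**Figure D2:**
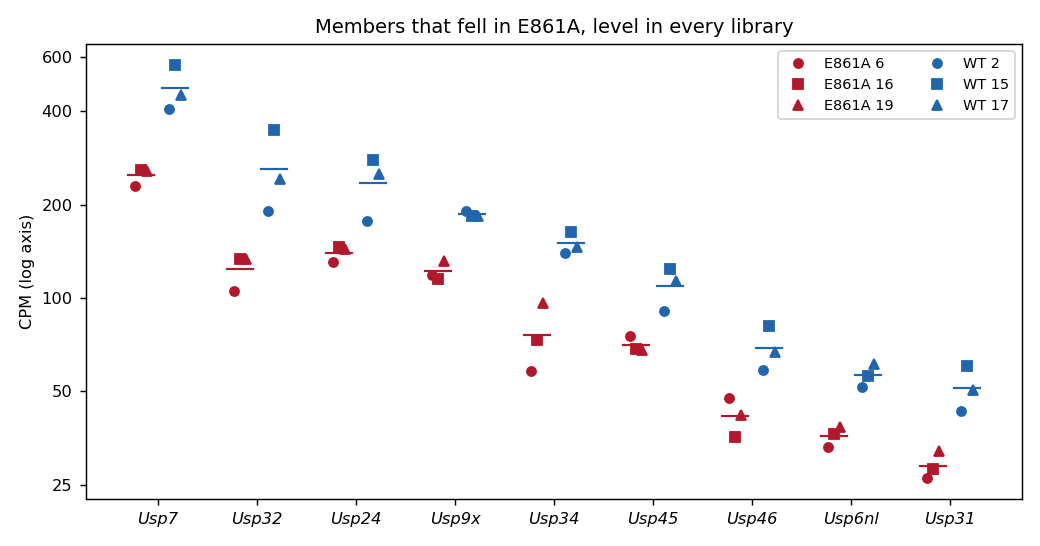
Level in CPM, on a log axis, of the 9 members that fell, with 1 point per library, E861A points left of WT points for each gene. In each gene the 3 E861A points lie below the 3 WT points, and WT 2 is the lowest WT point in 8 of the 9.

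Across the 9 genes WT 2, the male, was lowest of WT in 8 and WT 15 highest in 7. WT 2 was also lowest of WT in 29 of the 46 tested members and in 51.0% of all tested genes. WT 15 also had the highest summed erythroid and cell cycle levels. Exon length was 8648 bp in the median of the 9, with a range of 5533 to 17637 bp, and 4886 bp in the median of the 37 others tested. Across the 46 tested members the Spearman correlation of exon length with log2 fold change was -0.28, beside -0.18 across all 16511 tested genes. Genes are not independent replicates, and these values only describe the table. No E861A and WT values overlapped for 16 members that were lower and 3 that were higher in E861A (Usp3, Usp11 and Usp40), where 14.5% and 19.4% of all tested genes were separated in those directions.

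The chromatin group holds 8 members that act mainly on histones H2A and H2B or in the nucleolus, and 0 were called, with 1 at an unadjusted p under 0.05, 0 called by DESeq2 and a median of -0.11. That 1 was Usp49, an H2B protease, with 12.9, 10.98 and 11.2 CPM in E861A 6, 16 and 19, against 20.3, 14.8 and 15.5 CPM in WT 2, 15 and 17. The groups were separate, but the log2 fold change of -0.53 (SE 0.18) did not pass (edgeR adjusted p = 0.104). The gene Med20 covers 65.0% of the exon bases of Usp49 on the same strand, so these reads may not be its own. Usp22, the H2B protease of the SAGA complex, had 69.1, 80.7 and 97.2 CPM in E861A, against 94.5, 61.9 and 65.7 CPM in WT, with overlapping groups and a log2 fold change of 0.15 (SE 0.21). Usp3, which acts on H2A, was higher in every E861A liver at 0.31 (SE 0.14), while Usp21 stood at -0.21, Usp16, the H2A protease of mitosis, at -0.17 and the nucleolar Usp36 at -0.06.

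The X-linked relatives of Usp22 were scarce. Usp27x had 3.17, 2.68 and 3.11 CPM in E861A 6, 16 and 19, against 4.28, 1.09 and 1.48 CPM in WT 2, 15 and 17, so that the male WT 2 was above all E861A livers and the female WT livers below them. Its log2 fold change was 0.38 over all libraries and -0.52 with sex as a covariate. Without WT 2 it was 1.19, with an edgeR adjusted p of 0.0360. Usp51 was near 1 CPM, with 0.260, 1.19 and 0.634 CPM in E861A, against 0.897, 0.834 and 0.794 CPM in WT, and a log2 fold change of -0.29 (SE 0.52), which was 0.11 without E861A 6. Of the remaining sex-linked members, Usp26 on X and Usp9y on Y had 0 reads in every library, which allows up to 0.0656 to 0.0846 CPM in E861A and 0.0689 to 0.0794 CPM in WT (3 reads per library, counting error only).

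The remaining groups were small. None of the 3 proteases that recycle ubiquitin chains (Usp5, Usp13 and the proteasome-bound Usp14) was called by edgeR, 0 had an unadjusted p under 0.05, and DESeq2 called 0. Usp39 had 112, 82.6 and 74.6 CPM in E861A 6, 16 and 19, against 97.6, 156 and 132 CPM in WT 2, 15 and 17, with E861A 6 inside the WT range and a log2 fold change of -0.52 (SE 0.22, edgeR adjusted p = 0.178) that was -0.12 with sex as a covariate. Of 5 germ line members, 1 (Usp29) had enough reads to test, at under 1 CPM in every library. Usp17l5 had 4, 0 and 2 reads in E861A 6, 16 and 19 and 0 reads in every WT library, too few for a comparison. Usp43 and Usp50 stayed below the read filter as well. The 37 tested members that were not called had log2 fold changes from -1.22 to 0.49, and 23 of them lay within 0.3 of 0.

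By level, 44 of the 51 members averaged at least 1 CPM. Scaled to exon length, the family median was 7.92 CPM per kilobase over both genotypes. The top of the family was Usp25 with 46.3 CPM per kilobase in E861A and 62.8 in WT, followed by Usp15 (48.4 in E861A, 59.5 in WT), Usp1 (42.1 in E861A, 61.3 in WT), Usp4 (45.3 in E861A, 50.6 in WT) and Usp39 (37.0 in E861A, 52.99 in WT). The spread over libraries exceeds the gaps between neighbours in this order. When coding length replaced exon length, 3 of these 5 stayed among the top 5. These ranks pool both genotypes. Usp7 is also in the top 5 in WT alone, at rank 4, and per coding length, at rank 2.

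The promoters of the members that fell are shown by the example of Usp7, the member with the smallest adjusted p. RefSeq promoters (250 bases before to 50 after the start, GRCm38.p6) were matched for 39 of the 51 members, 8 of which fell. By its numbers the Usp7 window lies inside the counted gene model, whose 5′ end is at 8792401 in NCBIM37. Positions were not converted between the builds, and the RefSeq start may not be that of the counted model. The run below is the Usp7 window at chr16:8738293-8738592, minus strand, 5′ to 3′, with the GC box GGGCGG or its reverse complement in capitals (8 matches, some overlapping).
Usp7: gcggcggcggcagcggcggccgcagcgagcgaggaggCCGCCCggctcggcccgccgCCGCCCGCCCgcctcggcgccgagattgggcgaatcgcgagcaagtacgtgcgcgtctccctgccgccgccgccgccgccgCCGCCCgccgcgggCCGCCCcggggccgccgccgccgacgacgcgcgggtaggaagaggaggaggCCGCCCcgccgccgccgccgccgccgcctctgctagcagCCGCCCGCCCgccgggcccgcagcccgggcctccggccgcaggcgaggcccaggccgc
GGGCGG, searched on both strands, occurred in 27 of the 39 matched members (69.2%) and in all 8 of those that fell. It occurred in 38.2% of 27025 genes with RefSeq promoters of the same length. A gene counted if any of its promoters matched. These genes were taken whether or not they were expressed here. No share was taken over the tested genes alone, so the difference cannot be read as a trait of the family. The core of the interferon-stimulated response element was searched on both strands as GAAA, any 2 bases and GAAA again. It occurred in 1 of the 39 (2.56%, in Usp49) and in 0 of the 8, against 3.99% of the 27025 genes. A match says only that the letters are present in this window.

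The editing table lists 50 sites in 14 members, out of 6012 sites in all. Of these 50, 30 are intronic and 20 lie in a 3′ UTR, and 19 of the 50 had fewer than 10 reads in a genotype. Of the 31 tested, 5 were edited less in E861A and 0 more, near the 16.7% of all tested sites that were lower. All 5 are in the 3′ UTR of Usp45, which holds 19 sites, each with at least 111 reads in E861A and 158 in WT. The UTR runs from 21761513 to 21765019 on chromosome 4. Its sites form 2 clusters, 13 sites over 135 bp and 6 sites over 44 bp. One annotated transcript splices out the 2002 bp between 21761719 and 21763720, which hold 8 of the 19 sites.

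The 4 windows below hold the 5 sites that were lower. They are read from NCBIM37, plus strand, 5′ to 3′, and the adenosines of these 5 sites are in capitals; other listed sites in the windows are in lower case.
chr4:21761681-21761710: ttgtgcatgcctttAAttccagcacttggg
chr4:21761711-21761740: aggcagaggcagacAgatctctgtttgagg
chr4:21763683-21763712: tggcccatgcctttAgattcagcacttggg
chr4:21763725-21763754: gtggatttgagttcAaggacaccctggtcc
The windows at 21761681 and 21763683 share 24 of 30 bases, position by position, and each carries a called adenosine at the same place. A self-alignment of the region found the first cluster inside one arm of an inverted repeat, 21761656 to 21761743 against 21761913 to 21762005, with 78.9% identity over 95 bp and 11 of its 13 sites in the first arm. The second cluster lies in an arm at 21763680 to 21763808 that is inverted relative to 21761840 to 21761980, with 76.6% identity over 141 bp. Inverted repeats can fold into the double-stranded RNA on which ADAR1 acts, but no structure was measured.

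The first capital in the window at 21761681 is position 21761695, the most edited site of the family. There, 0 of 239 reads were edited in E861A, against 126 of 358 in WT, or 35.2% (Wilson 95% interval 30.4 to 40.3). By library the level was 0% in all 3 E861A livers, against 34.9%, 46.8% and 23.6% in WT 2, 15 and 17. A count of 0 in 239 allows a level of up to 1.26%. The difference had an adjusted p of 3.548e-31 (two-sided Fisher's exact test on reads summed per genotype). Fisher's test treats reads as independent and does not see the spread between livers, so the library values stand beside it.

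The other called sites had lower levels. Position 21761696, next to the first, had 0 of 240 edited reads in E861A, against 25 of 355 (7.04%) in WT, with 6.42%, 8.87% and 5.74% in WT 2, 15 and 17. Position 21761725 had 0 of 176 in E861A, against 16 of 237 (6.75%) in WT. In the second cluster, position 21763697 had 2 of 550 (0.364%) in E861A, both in E861A 19, against 36 of 647 (5.56%) in WT. Position 21763739 had 0 of 418 in E861A, against 16 of 469 (3.41%) in WT. At each of these 4 sites every WT liver was above every E861A liver, and the adjusted p by Fisher's exact test ranged from 6.963e-07 to 0.00129.

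Summed over the 13 sites of the first cluster, 10 edited base calls were seen in E861A and 177 in WT, and over the 6 sites of the second, 3 in E861A and 63 in WT. One read can count at several of these sites. At 21761687, which was not called, 4 of 237 reads were edited in E861A and 0 of 360 in WT (adjusted p = 0.117). The 12 tested sites outside Usp45 are intronic, in Usp34, Usp38, Usp4, Usp8, Usp11 and Usp33, and all but the one in Usp4 had at most 36 reads in a genotype. None was called, and at that depth a level of 0 allows 8.33% or more.

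**Figure D3:**
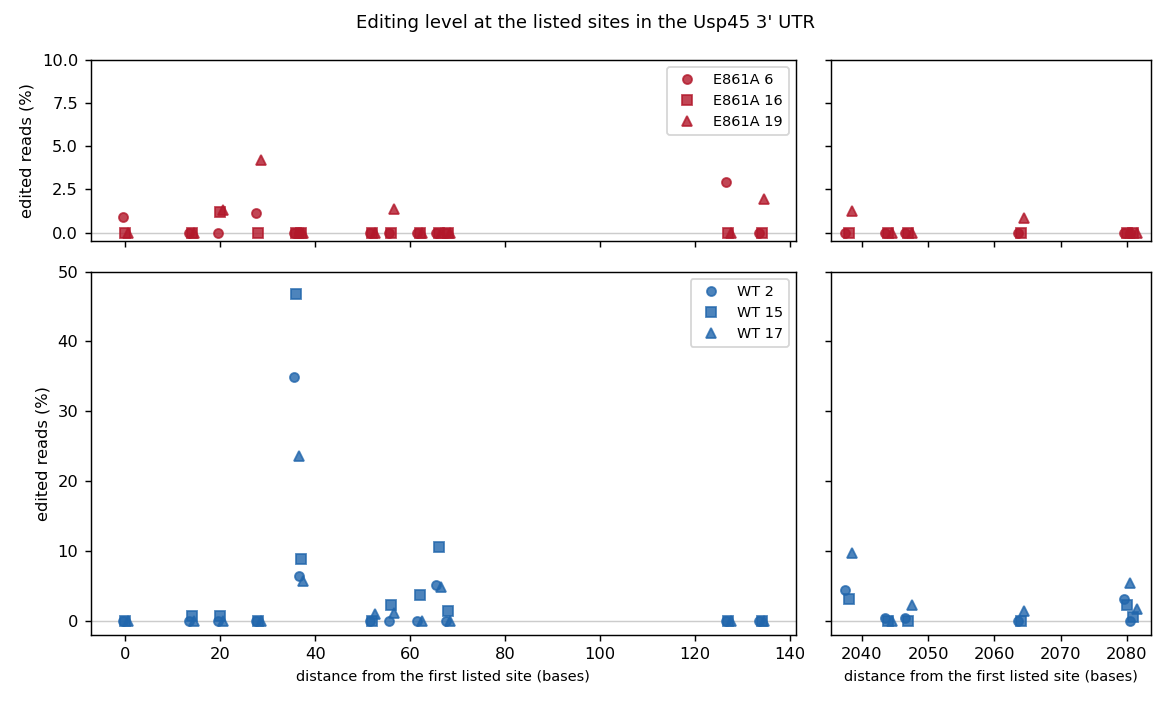
Percent of reads edited at the 19 sites in the Usp45 3′ UTR against distance in bases from the first site, with 1 point per library, E861A in the upper row and WT in the lower row, on different vertical scales. WT reaches 46.8% at the most edited site, where all E861A libraries are at 0.

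Usp45 was the one member that both fell in level and had sites that passed the test for lower editing. Usp34, which also fell, has 5 tested intronic sites with 13 to 24 reads a genotype, none called. Whether the edited state of the UTR and the level of Usp45 are related was not tested.

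Other deubiquitinases, not taken by the name rule, moved in both directions. Their list was not drawn by protease family and names Cyld and Uspl1 among others. Of 30 tested, 6 rose and 2 fell, and their median log2 fold change was -0.01, beside -0.23 for the members taken by name. Zufsp, a protease for long K63-linked chains, had 63.2, 55.02 and 49.99 CPM in E861A 6, 16 and 19, against 13.1, 13.4 and 14.9 CPM in WT 2, 15 and 17, a log2 fold change of 2.02. Tnfaip3, the NF-kappaB inhibitor A20, had 12.9, 16.8 and 11.3 CPM in E861A, against 2.90, 3.39 and 3.23 CPM in WT, a log2 fold change of 2.11. Brcc3 (0.94) and Vcpip1 (0.78) also rose, while Fam63b (-1.04) and Yod1 (-0.99) fell. The edgeR adjusted p of these 6 ranged from 0.0001091 to 0.0197.

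The genes of ubiquitin itself and of its activating enzymes showed no call. Of 6 tested, edgeR called 0, with 2 at an unadjusted p under 0.05, while DESeq2 called 1 lower, and the median was 0.06. Among 17 tested partners of the family 3 fell. These were Fanci (-0.92) and Fancd2 (-0.67), the paired substrates of Usp1, and Wdr48 (-0.46), the shared activator of Usp1, Usp12 and Usp46, with edgeR adjusted p of 0.0102, 0.0264 and 0.0491. Wdr48 had 54.2, 57.8 and 58.6 CPM in E861A 6, 16 and 19, against 72.6, 81.3 and 80.2 CPM in WT 2, 15 and 17. With sex as a covariate, and also without WT 17, none of the 3 was called.

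**Figure D4:**
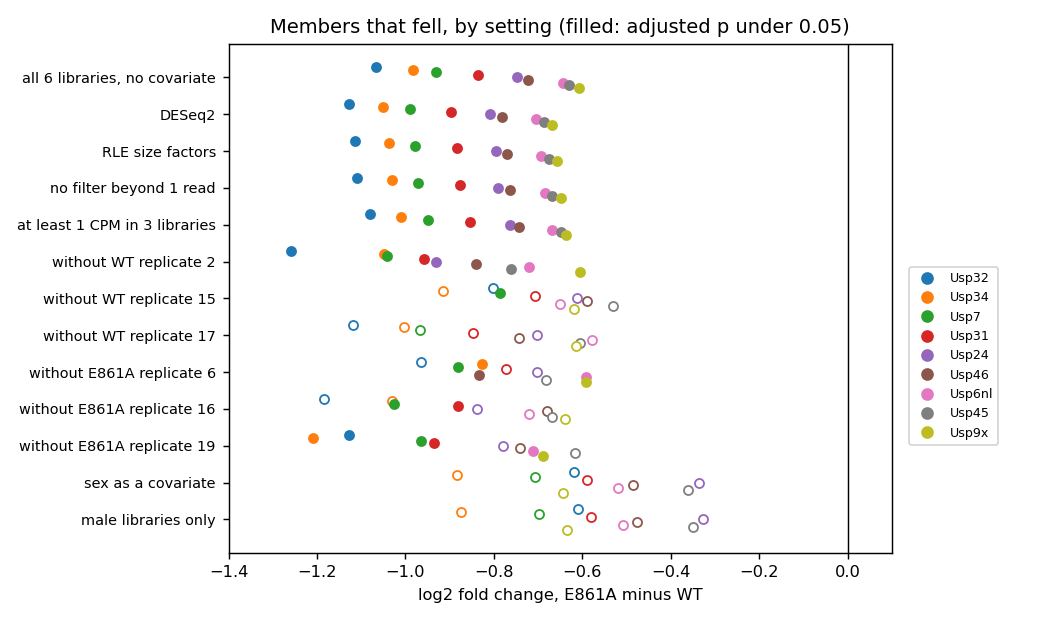
Log2 fold change, E861A minus WT, of the 9 members that fell, under each setting down the page. Filled points have an adjusted p under 0.05 and open points do not; every point lies left of 0, and all points are open with sex as a covariate, in the male libraries alone and without WT 17.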

How the data were processed

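RNA of 6 whole fetal livers was sequenced, 3 per genotype. Per the submitters' processing notes, the tools were Trimmomatic, TopHat2, Bowtie2, BWA, SAMtools, Cufflinks, HTSeq, limma and edgeR, with builds mm9 and NCBIM37; which tool made which file is not given in the sources used here. The gene table holds raw read counts as deposited by the authors. The table of editing sites gives, per the file headers, coverage as read counts, the editing level as a fraction and an ANOVA p. Edited reads were recovered as the product of coverage and level, within 2e-06 of a whole number. The authors' deposited comparison table gives log2 fold changes and p-values; its fold changes run WT minus E861A and were turned here.

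Counts of all genes were tested with edgeR 4.0.16 in R 4.3.3 (filterByExpr, TMM, robust quasi-likelihood F test, Benjamini-Hochberg over 16511 genes). CPM are TMM-scaled, and SE is that of the fold change implied by F. On simulated counts for this comparison (16346 genes) the fit recovered 92 of 100 genes changed by a log2 fold change of 1 and 97 of 97 changed by 2, either way, with 17 false calls in all. The simulation gave every gene the same dispersion and held no difference by sex or cell makeup, so these rates may not hold for the real libraries. Depth was 35280460 to 43733715 reads a library, and replicates of a genotype differed by far more than counting error (chi-square per degree of freedom 40.3 to 125.4), so none was counted as a repeat. Sites covered by 10 or more reads per genotype were compared by Fisher's exact test in SciPy 1.17.1. Intervals and limits at 0 (3 counts) cover counting error only. Exon lengths, UTRs and windows came from GENCODE M1 and NCBIM37, which gave the same start for 51 of 51 members, and inverted repeats from BLAST 2.17.0 with an E-value under 1e-05. Usp52, listed for a role, has no match in the table.

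Members, role groups and companion lists were chosen with earlier results of these data known. Values in every library are given for members with an adjusted p under 0.05, for the 5 others of largest fold change at a mean of at least 5 CPM, for the 5 highest per length and for sex-linked members; up to 6 called genes per companion list are named. Values of Usp37, Usp30, Usp22, Usp12 and the untested members were printed after their values were seen. Alternatives were RLE scaling, other read filters, DESeq2 1.42.0, sex as a covariate, male libraries only, other coverage minimums (5 and 20) and each library left out. The deposited normalised counts were not used. No protein sequence is shown.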

Additional observations from a re-analysis of the deposited data

How the results depend on the processing

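No paired analysis was possible because no embryo number occurs in both genotypes and litters are not named. RLE scaling, either other read filter and DESeq2 gave 9 to 12 called members against 9 and kept all 9. Adding sex as a covariate, or keeping male livers only, left 0 members called against 9, 5 and 2 other deubiquitinases against 8, and 0 partners against 3. With each library left out in turn, called members ranged from 0 to 13, other deubiquitinases from 4 to 14, partners from 0 to 4 and ubiquitin genes and activating enzymes from 0 to 1. RLE scaling, the filter of 1 CPM in 3 libraries and DESeq2 each called 1 of the ubiquitin genes and activating enzymes, against 0. With sex as a covariate and with male livers only, Usp25 stood at 0.0097 and 0.020, Usp4 at 0.15 and 0.16, and Usp27x at -0.52 and -0.51 on the log2 scale, each on the other side of 0, and Usp51 ranged from -0.99 to 0.11 with each library left out, above 0 only without E861A 6. The cause of these changes was not tested. The 5 lower editing sites were called at each coverage minimum and with each library left out. All 5 have far more reads than any of these minimums, so the minimum changed only the set of sites adjusted over. The median level per length was 20.7 CPM per kilobase of coding length, against 7.92 of exon length, since coding length is shorter. No setting moved the median over all genes by more than 0.08 on the log2 scale. Sex is male in all E861A livers and in 1 of 3 WT livers, so the fits with sex rest on 1 male WT liver.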
